A study of Homo sapiens with 6 samples.

Results

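The numbered zinc finger genes of chromosome 19 are the protein-coding genes of that chromosome whose symbol is ZNF followed by a number. The name, chromosome and transcript type columns of the deposited gene FPKM table (fragments per kilobase, scaled to the library) gave 242 of them among 35252 genes with a count, 79 on the short arm (19p) and 163 on the long arm (19q), with the arms split at 25 Mb. The deposited transcription factor annotation lists 239 of the 242 as C2H2 zinc finger proteins, and its Reactome column places 165 in the pathway of KRAB zinc fingers and KAP1. The 15 numbered loci of the chromosome with no coding type were left out.

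C2H2 zinc finger proteins read DNA through an array of short fingers held by zinc. Many of those encoded on chromosome 19 also carry a KRAB domain, which recruits the scaffold TRIM28 (KAP1) and, through it, the histone methyltransferase SETDB1, and silences transposable elements and other loci. The genes arose by repeated local duplication and lie in long runs along the chromosome, so that neighbours resemble each other in sequence.

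The study measured poly(A) RNA of HK2 cells, an immortalised human line of renal tubular epithelium, taken 48 h after transfection with a FLAG-VMP1 plasmid; VMP1 spans the endoplasmic reticulum membrane and is needed to form autophagosomes. All 6 libraries come from transfected cells: 3 from total cell lysate, titled positive controls, and 3 from RNA immunoprecipitation with FLAG antibody on magnetic beads. The treatment labels number the plasmid Flag-VMP1 to Flag-VMP6 over the 6 libraries, while the titles of the immunoprecipitates read FLAG VMP1. The sources used here give no promoter for the plasmid. Nothing in the labels says that replicates are separate cultures, so each p-value speaks only to the spread among these libraries. No immunoprecipitate without the tag or with another antibody was analysed here.

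Library totals were 77753608 to 92948069 counts in the lysates and 54363555 to 59293096 in the immunoprecipitates. The transfected gene, VMP1, was at 297, 301 and 306 CPM (counts scaled to the library size by edgeR's trimmed mean of M-values) in the lysates and 2347, 274 and 2685 CPM in FLAG IP 1, 2 and 3. The library labelled FLAG IP 2 therefore stood at the lysate level for VMP1, and the main results below are given with and without it. The nuclear long noncoding RNA MALAT1 had a like order, with 201 to 209 CPM in the lysates against 1678, 282 and 1839 in the immunoprecipitates. The 8 listed nuclear long noncoding RNAs summed to 709 to 742 CPM in the lysates and to 2813, 1224 and 2863 CPM in the immunoprecipitates, a sum that MALAT1 leads, and PVT1 among them was highest in FLAG IP 2 (36.1, 277 and 36.0 CPM). Of the 15 listed markers of tubule and simple epithelium with a count, KRT8 was at 459 to 470 CPM and PAX8 at 283 to 315 CPM in the lysates. CDH1 was at 1.23 to 1.79 CPM and PAX2 at 2.28 to 2.65 CPM, the proximal tubule receptor gene LRP2 is not among the genes with a count and AQP1 and CUBN were under 1 CPM there. The epithelial list summed to 1948 to 2053 CPM in the lysates and to 912, 2119 and 936 CPM in the immunoprecipitates. Without FLAG IP 2, edgeR called 9 of its 15 genes lower and 0 higher, where 27.2% of all genes tested were called lower and 23.9% higher. The 13 fibroblast markers summed to 294 to 319 CPM in the lysates and to 65.9, 910 and 74.8 CPM in the 3 immunoprecipitates. LOX led the sum in FLAG IP 2 at 551 CPM (128 to 139 in the lysates). LUM went the other way, at 18.0 CPM there against 83.4 to 91.3 in the lysates. The 13 neutrophil markers summed to 320 to 558 and to 105, 385 and 12.4 CPM, and 9 other blood and endothelial markers to 257 to 310 and to 50.3, 249 and 24.2 CPM. In the fit without FLAG IP 2, 10 of 13 fibroblast, 6 of 13 neutrophil and 5 of 8 tested blood and endothelial markers were called lower. In these 3 lists 0 were called higher. The part of these differences between libraries in the results below was not tested.

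The stretches upstream of the start site are shown first, since shared letters recur in several runs of 19p. RefSeq promoter windows (GRCh38.p14) were matched by symbol to 215 of the 242 genes, 72 on 19p and 143 on 19q, and the 250 bases before the start were searched on both strands for 6 short motifs. The start used by RefSeq was that of the deposited gene for 95 of the 215 and within 250 bases of it for 174. The last 120 bases before the start are printed for the 3 genes called higher over all libraries (ZNF44, ZNF266 and ZNF432), for 2 further 19p genes with large differences (ZNF844 and ZNF682) and for ZNF526, which was lower in the immunoprecipitates. Capitals mark the CCAAT box, the GC box (GGGCGG), an ETS core (CCGGAAG) and the 8 letters GTCACTCA, on either strand.
ZNF44 (chr19:12294884-12295003, minus strand): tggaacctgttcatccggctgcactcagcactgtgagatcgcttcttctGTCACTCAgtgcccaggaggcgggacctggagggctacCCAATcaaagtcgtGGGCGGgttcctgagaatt
ZNF844 (chr19:12064611-12064730, plus strand): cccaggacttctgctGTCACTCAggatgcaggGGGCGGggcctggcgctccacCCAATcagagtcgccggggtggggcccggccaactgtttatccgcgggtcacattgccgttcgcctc
ZNF682 (chr19:20039506-20039625, minus strand): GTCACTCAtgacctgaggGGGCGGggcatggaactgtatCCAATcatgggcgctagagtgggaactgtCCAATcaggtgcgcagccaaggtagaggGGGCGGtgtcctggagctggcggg
ZNF266 (chr19:9435574-9435693, minus strand): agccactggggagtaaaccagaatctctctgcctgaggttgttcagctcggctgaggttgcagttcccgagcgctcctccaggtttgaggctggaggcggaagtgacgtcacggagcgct
ZNF432 (chr19:52048839-52048958, minus strand): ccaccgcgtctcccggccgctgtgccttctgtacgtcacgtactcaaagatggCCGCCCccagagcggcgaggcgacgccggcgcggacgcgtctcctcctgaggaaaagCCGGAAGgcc
ZNF526 (chr19:42220192-42220311, plus strand): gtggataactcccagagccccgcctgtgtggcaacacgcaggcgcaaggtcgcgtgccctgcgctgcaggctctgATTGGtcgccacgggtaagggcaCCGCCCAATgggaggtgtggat

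ZNF44, ZNF844 and ZNF682, which lie in 2 separate runs of 19p, share GTCACTCA, a GC box and a CCAAT box in these stretches, whereas the ZNF266 stretch holds none of the marked motifs. In ZNF526 the GC box and a CCAAT box overlap. Over the 250-base windows, CCAAT, the box that binds the factor NF-Y, was found in 59 of 72 19p genes (81.9%), in 50 of 143 19q genes (35%), in 42.1% of numbered ZNF genes on other chromosomes and in 34.5% of the windows of coding genes. GGGCGG, the GC box, was in 81.9% of the 19p windows, 55.9% of the 19q windows and 56.0% of coding genes. CCGGAAG, the core bound by ETS factors, was in 31.9% and 31.5% of the windows of the arms, against 27.6% of the numbered ZNF genes elsewhere and 11.8% of coding genes. TATAAA was in 4 of the 215 windows (1.86%, against 9.23% of coding genes) and GCGCATGC in 8 (3.72%, against 3.70%).

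GTCACTCA was added to the search after the stretches had been read. It was in 37 of 72 19p windows (51.4%) and in 0 of 143 19q windows, against 7.48% of numbered ZNF genes on other chromosomes and 1.11% of coding genes. By position, 22 of the 28 windows between 19.7 and 24.1 Mb and 14 of the 24 between 11.5 and 12.6 Mb held it, and CCAAT was in all 28 of the former and 22 of the latter. The other 19p runs differed, with GTCACTCA in 1 of 5 windows and CCAAT in all 5 from 2.8 to 2.9 Mb, and GTCACTCA in 0 of 14 and CCAAT in 4 of 14 (28.6%) from 7.1 to 9.8 Mb. On 19q the run from 55.5 to 58.5 Mb held CCAAT in 30 of 54 windows (55.6%). These genes are duplicates of one another, so the windows are not independent. The match describes letters in a window and no binding was measured.

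Of the 242 genes, 237 passed edgeR's expression filter, 75 on 19p and 162 on 19q. The 5 that did not were ZNF208, ZNF98, ZNF492, ZNF536 and ZNF676; ZNF676 had 94 counts in FLAG IP 2 and 0 in the other 5 libraries. In the lysates the 237 genes had a median of 1.75 FPKM, and 179 of the 242 were at 1 FPKM or more, against a median of 2.43 FPKM over tested numbered ZNF genes on other chromosomes and 3.99 over tested coding genes. The highest was ZNF146, a protein made almost only of zinc fingers, at 45.9 ± 2.51 FPKM (SD, n = 3). It was followed by ZNF581 at 15.7 ± 1.80, ZNF587 at 10.2 ± 0.77, ZNF317 at 9.70 ± 0.45, ZNF114 at 8.53 ± 0.65 and ZNF260 at 7.58 ± 0.24 FPKM. ZNF587 and ZNF317 stood within their spread of each other.

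Summed over all members, the level was 3503, 3567 and 3518 CPM in the lysates and 8149, 3770 and 7877 CPM in immunoprecipitates 1, 2 and 3. Each immunoprecipitate was above every lysate, FLAG IP 2 by far less than the other pair. Numbered ZNF genes on other chromosomes summed to 6301 to 6488 CPM in the lysates and to 11203, 5645 and 11369 CPM in the immunoprecipitates, so that FLAG IP 2 was below the lysates there. Other coding genes of chromosome 19 went the other way, with 46843 to 50037 CPM in the lysates and 31571, 56601 and 29773 CPM in the immunoprecipitates. These sums set RNA recovered with FLAG antibody beside RNA of the total lysate, so a difference between them is not a measure of expression. Within either kind of bulk library, fewer cells with a transcript and less of it per cell cannot be told apart.

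The comparison of immunoprecipitate with lysate asks which RNAs were recovered with FLAG-VMP1 relative to their level in the same kind of cells. Over all 6 libraries, edgeR's quasi-likelihood test with Benjamini-Hochberg adjustment over 20593 genes called 3 of the 237 members higher, ZNF44, ZNF266 and ZNF432, and 0 lower, where 0.16% of all genes tested were called higher and 0.5% lower. At an unadjusted p under 0.05, 92 members were higher (11.9% of all genes) and 2 lower (9.44% of all genes). The members' median log2 fold change was 0.72, against 0.06 over all genes tested and -0.06 over coding genes, and 209 of 237 (88.2%) were above 0, against 52.4% of all genes. DESeq2 on the same genes, which gave an adjusted p for 235 members, called 75 higher, 38 on 19p and 37 on 19q, and 2 lower, where it called 9.43% and 5.89% of all genes. Counts were also simulated with a single dispersion shared by all genes, 0.36 over all 6 libraries and 0.11 without FLAG IP 2. In these the edgeR test recovered 21.2% and 98.5% of 8-fold changes. The simulation holds no spread that differs by gene and no outlying library, so these shares do not carry over to the real genes.

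Without FLAG IP 2, edgeR called 161 of the 237 members higher (67.9%) and 5 lower (2.11%), where 23.9% of the 22062 genes then tested were called higher and 27.2% lower. The members' median was then 0.93. Of the 75 that DESeq2 called higher over all libraries, 73 were among the 161, which is 97.3% of the first list and 45.3% of the second. The 161 are themselves 67.9% of the tested members. Both lists come from the same counts, less FLAG IP 2 in the second, so the overlap is no independent support. All 3 immunoprecipitates exceeded all 3 lysates for 78 members (32.9%), against 13.4% of all genes, and were below them for 7 (2.95%), against 17.7%. Read library by library, FLAG IP 1 was above every lysate for 199 members (84.0%) and FLAG IP 3 for 184 (77.6%), where 41.7% and 39.4% of all genes were. FLAG IP 2 was above every lysate for 112 members (47.3%), where 40.9% of all genes were.

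ZNF44 (ENSG00000197857, chr19:12224686-12294883, minus strand, GRCh38.p14) was at 12.5, 11.3 and 11.2 CPM over the lysates, against 32.4, 36.0 and 35.3 CPM in the immunoprecipitates. The groups did not overlap, and FLAG IP 2 lay with the other immunoprecipitates for this gene. Its log2 fold change was 1.57 (SE 0.18; adjusted p = 0.037 by edgeR), and 1.55 without FLAG IP 2. Of its transcript counts, 91.3% in the lysates and 97.5% in the immunoprecipitates lay on coding models. 2 unnamed genes on the other strand overlap it, and the sources used here do not say whether counting used the strand.

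ZNF266 (ENSG00000174652, chr19:9412429-9435573, minus strand), a KRAB zinc finger gene by the deposited annotation, was at 25, 23.6 and 24.9 CPM over the lysates, against 55.3, 75.3 and 58.2 CPM in the immunoprecipitates. Every immunoprecipitate was above every lysate, and FLAG IP 2 was the highest. The log2 fold change was 1.36 (SE 0.19; adjusted p = 0.049 by edgeR), and 1.23 without FLAG IP 2. It overlaps no other gene of the table.

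ZNF432 (ENSG00000256087, chr19:52031378-52048838, minus strand), also KRAB annotated, was at 12.8, 13.0 and 11.7 CPM over the lysates, against 37.3, 43.1 and 51.3 CPM in the immunoprecipitates. The groups did not overlap here either. Its log2 fold change was 1.81 (SE 0.20; adjusted p = 0.036 by edgeR), and 1.84 without FLAG IP 2. The adjusted p of the 3 genes exceeded 0.05 with each other library left out in turn, at 0.15 to 0.44 over the 5 fits, in which edgeR called no gene of the table. ZNF844, a neighbour of ZNF44 with 3.23, 3.76 and 3.82 CPM in the lysates and 11.6, 21.6 and 17.2 in the immunoprecipitates, had a log2 fold change of 2.22 and missed the threshold at an edgeR adjusted p of 0.0501, and upper-quartile scaling called it (adjusted p = 0.046).

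**Figure D1:**
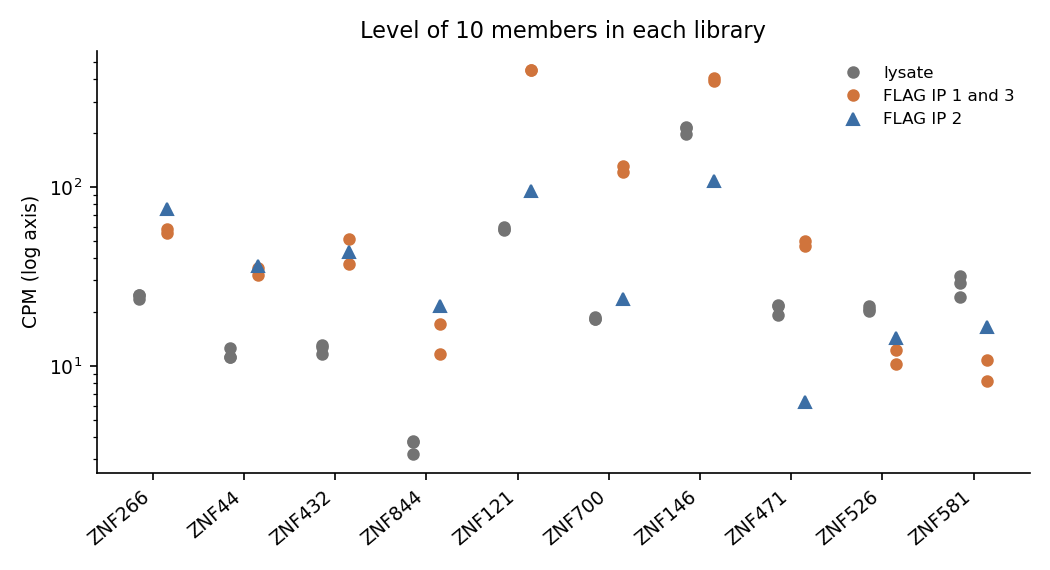
Level of 10 numbered zinc finger genes in each library, in CPM on a log axis; grey points are the 3 lysates, orange points FLAG IP 1 and 3, blue triangles FLAG IP 2. For ZNF266, ZNF44 and ZNF432 all 3 immunoprecipitates lie together above the lysates, whereas for ZNF121, ZNF700, ZNF146 and ZNF471 FLAG IP 2 lies far below FLAG IP 1 and 3.

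Among members with a mean of at least 5 CPM and non-overlapping groups, 6 of the 8 with the largest differences were far higher in FLAG IP 1 and 3 than in FLAG IP 2, while in ZNF844 and ZNF433 FLAG IP 2 was the highest. ZNF682, in the run of 19.7 to 24.1 Mb, was at 3.96, 4.37 and 3.71 CPM over the lysates, against 36.3, 7.48 and 27.4 CPM in the immunoprecipitates, a log2 fold change of 2.56 (SE 0.58; adjusted p = 0.10 by edgeR). ZNF121 was at 60.0, 57.8 and 58.4 CPM against 450, 95.0 and 448 CPM, a log2 fold change of 2.50 (SE 0.58; adjusted p = 0.11 by edgeR). Both had every immunoprecipitate above every lysate, with FLAG IP 2 well short of the others, and without that library the log2 fold changes were 3.00 and 2.95. ZNF490 (2.43), ZNF700 (2.32), ZNF547 (2.32), ZNF844 (2.22), ZNF433 (2.13) and ZNF439 (2.08) completed the 8 largest log2 differences, none past the threshold over all libraries and all 8 were called without FLAG IP 2, at 1.85 to 3.00 on the log2 scale. ZNF433 overlaps its antisense gene ZNF433-AS1 and ZNF490 overlaps ZNF791 on the other strand, so their counts may hold reads of both.

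In 4 of the 6 most abundant members the difference was smaller and FLAG IP 2 lay on the other side of the lysates. ZNF146 was at 213, 217 and 198 CPM over the lysates, against 390, 108 and 405 CPM in the immunoprecipitates, with a log2 fold change of 0.52 (edgeR adjusted p = 0.57), and of 0.94 without FLAG IP 2. ZNF587 was at 87.3, 81.4 and 78.5 CPM against 182, 45.5 and 187 CPM, with 0.75 over all libraries and 1.18 without FLAG IP 2. In both genes the lysates lay between FLAG IP 2 and the other pair. ZNF114 (0.54 and 0.92) and ZNF260 (0.26 and 0.58) had the same order of libraries, and ZNF146 overlaps the KRAB zinc finger gene ZNF565 on the opposite strand.

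Only 5 members met the same conditions on the low side, and none was called over all libraries. At any level, 7 members (2.95%) had all 3 immunoprecipitates below all lysates, against 17.7% of all genes. ZNF581 (ENSG00000171425, chr19:55635459-55645622, plus strand), with no KRAB annotation, was at 24.3, 29.1 and 31.6 CPM over the lysates, against 8.23, 16.5 and 10.8 CPM in the immunoprecipitates. All 3 immunoprecipitates were below the lysates, with a log2 fold change of -1.26 (SE 0.31, adjusted p = 0.11 by edgeR). Without FLAG IP 2 the log2 fold change was -1.56 and ZNF581 was called. It overlaps CCDC106 and ZNF580 on its own strand. ZNF526 was at 21.7, 20.8 and 20.2 CPM over the lysates, against 10.2, 14.3 and 12.2 CPM in the immunoprecipitates, a log2 fold change of -0.77 (SE 0.22; adjusted p = 0.14 by edgeR), and of -0.89 without FLAG IP 2, where it was called. It overlaps the kinase gene GSK3A on the other strand. ZNF574 (-0.53), ZNF585A (-0.31) and ZNF416 (-0.27) had smaller log2 differences and were not called with or without FLAG IP 2, and ZNF585A had FLAG IP 1 at 15.6 CPM against a lowest lysate of 15.7.

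The arms differed in the size of the shift. On 19p the median log2 fold change was 1.21, with 73 of 75 genes above 0, and on 19q it was 0.59, with 136 of 162 above 0. Without FLAG IP 2 the medians were 1.24 and 0.81. edgeR then called 60 higher and 1 lower of 75 on 19p, and 101 higher and 4 lower of 162 on 19q. Those called higher were 80% and 62.3%, where 23.9% of all genes were called higher and 27.2% lower. All 3 immunoprecipitates were above all lysates for 40 genes of 19p (53.3%) and 38 of 19q (23.5%), against 13.4% of all genes. Set against the lysate mean, the median shift was 1.32, 0.41 and 1.15 in FLAG IP 1, 2 and 3 on 19p, and 0.82, -0.09 and 0.76 on 19q, so that 19p was the higher arm in each library. In FLAG IP 2 other coding genes of the chromosome also parted by arm, at 0.34 on 19p and -0.20 on 19q. Their arms were at -0.65 and -0.69 in FLAG IP 1 and at -0.97 and -0.98 in FLAG IP 3. The difference of medians, 19q minus 19p, was -0.62 over all libraries and -0.44 without FLAG IP 2.

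**Figure D2:**
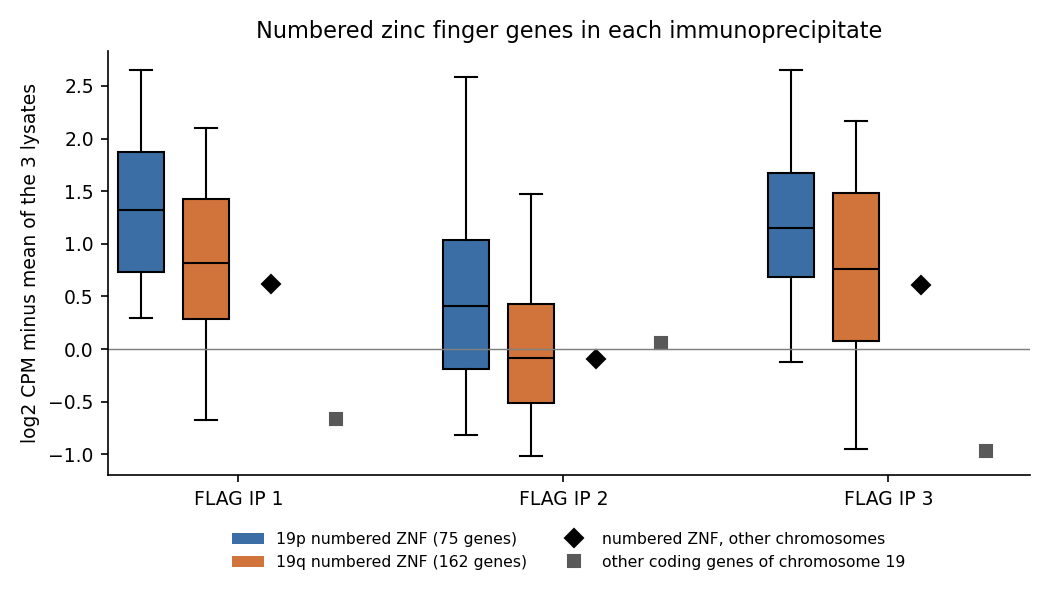
Difference in log2 CPM between each FLAG immunoprecipitate and the mean of the 3 lysates; boxes show the quartiles and median of the 75 tested 19p genes (blue) and 162 tested 19q genes (orange), with whiskers from the 5th to the 95th percentile. Diamonds and squares are medians of numbered ZNF genes on other chromosomes and of other coding genes of chromosome 19, which lie at 0.61 and -0.66 in FLAG IP 1 and at -0.09 and 0.05 in FLAG IP 2.

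Numbered ZNF genes on other chromosomes (251 genes, 242 tested) had a median of 0.48 with 182 above 0 (75.2%), and of 0.64 without FLAG IP 2, when 133 of 243 were called higher (54.7%) and 30 lower (12.3%). Their library shifts of 0.61, -0.09 and 0.61 were below those of both arms in FLAG IP 1 and 3 and about that of 19q in FLAG IP 2. The other coding genes of chromosome 19 (1041, of which 885 were tested) had a median of -0.34, and of -0.81 without FLAG IP 2, when 95 of 906 were called higher and 447 lower. On 19p these other genes had a median of -0.22 and on 19q of -0.50, and without FLAG IP 2 the medians were -0.77 and -0.85. The 16 chromosome 19 genes of other C2H2 families (ZFP, ZSCAN, ZIM, ZIK, ZBTB and PEG3) had a median of 0.10 over the 13 tested, which ranged from -1.19 to 0.82. edgeR called 0 of them over all libraries, with 2 at an unadjusted p under 0.05, and DESeq2 called 1. Without FLAG IP 2, edgeR called 4 higher (28.6%) and 1 lower (7.14%) of 14, where 23.9% and 27.2% of all genes were.

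In order of start position, with a new run wherever neighbouring starts lay more than 1 Mb apart, the members formed 16 runs, 9 of which had at least 5 tested genes. The highest median log2 fold change of these 9 was 1.55, in the 25 genes from 11.5 to 12.6 Mb that hold ZNF44, ZNF700, ZNF844, ZNF433, ZNF439 and ZNF490. The median was 1.49 without FLAG IP 2. All 25 were above 0, against 52.4% of all genes, and 18 had every immunoprecipitate above every lysate, against 13.4% of all genes. The run from 19.7 to 24.1 Mb, with 33 genes and 29 tested, had a median of 1.03 with all 29 above 0, and of 0.65 without FLAG IP 1. Without FLAG IP 2 its median was 1.32 with 27 of 29 called higher, where 23.9% of all genes were. In FLAG IP 2 alone its median shift was -0.07. ZNF101, at 9.48, 7.74 and 7.87 CPM in the lysates and 37.3, 19.6 and 44.5 in the immunoprecipitates, had the lowest p of that run (log2 fold change 2.02, edgeR adjusted p = 0.071, and 2.30 without FLAG IP 2). Its groups did not overlap.

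The other 19p runs of this size were 2.8 to 2.9 Mb (5 genes, median 1.06, with the lowest p in ZNF57 at 1.01) and 7.1 to 9.8 Mb (15 genes, 1.02), which holds ZNF266, ZNF121 and ZNF317. The medians of these runs were 1.19 and 0.72 without FLAG IP 2. ZNF317 parted the immunoprecipitates, at 53.8, 56.7 and 51.4 CPM in the lysates and 68.4, 96.8 and 19.9 CPM in FLAG IP 1, 2 and 3. The groups overlapped, and its log2 fold change of 0.19 became -0.28 without FLAG IP 2. The same run held ZNF414, which was called lower without FLAG IP 2 at -2.06.

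**Figure D3:**
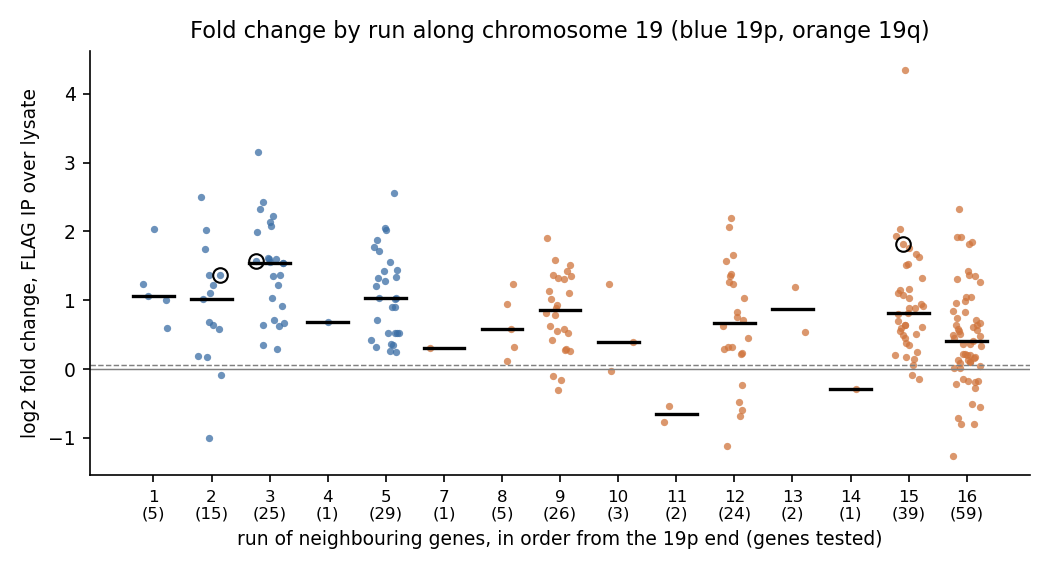
Log2 fold change of immunoprecipitate over lysate for the 237 tested genes, by run in order along the chromosome from the 19p end; the number of genes tested is in brackets, bars are medians, circled points passed edgeR's adjusted threshold, and the dashed line is the median of all genes tested (0.06). Run 3 has the highest median of the runs with 5 or more genes (1.55), and run 11, with 2 genes, has the lowest (-0.65).

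On 19q the medians were 0.58 in the 5 genes from 34.7 to 35 Mb, 0.85 in the 26 from 36.2 to 37.8 Mb, 0.67 in the 24 from 43.5 to 45.1 Mb, 0.81 in the 39 from 51.6 to 53.6 Mb and 0.41 in the 59 from 55.5 to 58.5 Mb. In the same order they were 0.80, 1.08, 0.69, 0.89 and 0.69 without FLAG IP 2. Any one immunoprecipitate moved the last of them by more than 1.5 times, to 0.26 without FLAG IP 1 and 0.19 without FLAG IP 3. The last of these, the largest run, ends near the telomere and had a median shift of 0.65, -0.46 and 0.75 in FLAG IP 1, 2 and 3. It holds ZNF547, the 19q gene among the 8 largest differences, as well as ZNF581 and ZNF416. The pair from 42.1 to 42.2 Mb, ZNF574 and ZNF526, had a median of -0.65, with a median shift below 0 in all 3 immunoprecipitates. The genes with the lowest p in the remaining 19q runs were ZNF30 (1.24), ZNF570 (1.32) and ZNF225 (1.38). Their edgeR adjusted p was 0.15, 0.12 and 0.12, and all 3 had immunoprecipitates above lysates throughout. The most abundant per length in these 3 19q runs without a top gene named so far were ZNF302 (4.43 FPKM in the lysates), ZNF428 (4.26) and ZNF160 (6.40). They lie from 34.7 to 35 Mb, 43.5 to 45.1 Mb and 51.6 to 53.6 Mb. In the 19p runs from 11.5 to 12.6 Mb and from 19.7 to 24.1 Mb they were ZNF823 (6.01) and ZNF254 (3.98).

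FLAG IP 2 was below both other immunoprecipitates for 159 of the 237 members (67.1%), where 40.9% of all genes tested were. It was above both for 50 of the 237, where 45.0% of all genes tested were. ZNF565, ZNF471 and ZNF8 differed most on the low side. ZNF471, a KRAB zinc finger gene, was at 19.2, 21.7 and 21.9 CPM over the lysates, against 50.1, 6.29 and 46.5 CPM in the immunoprecipitates, and ZNF8 was at 33.2, 35.9 and 35.3 against 175, 25.2 and 195 CPM. FLAG IP 2 was below every lysate in both. On the high side ZNF585B was at 5.04, 5.32 and 5.17 CPM over the lysates, against 6.67, 20.5 and 6.79 CPM in the immunoprecipitates, all of them above the lysates. ZNF284, at 37.8, 8.65 and 0 CPM in the 3 immunoprecipitates, was placed on the high side by its count of 0 in FLAG IP 3. Outside the rule for named genes, ZNF677 was singled out after its values were seen, with 15, 20 and 15 counts in the lysates and 2, 664 and 0 in the immunoprecipitates.

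**Figure D4:**
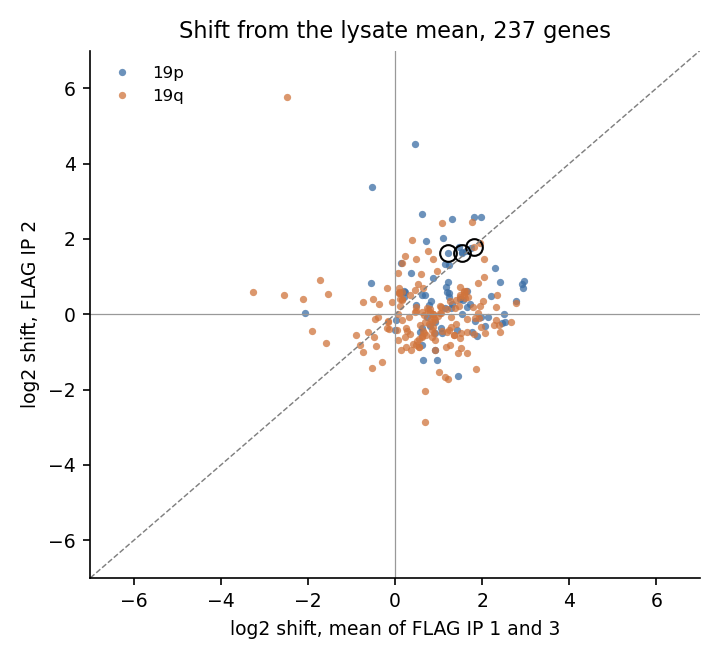
Shift of each of the 237 tested genes from the lysate mean, in log2 CPM, for FLAG IP 2 (vertical axis) against the mean of FLAG IP 1 and 3 (horizontal axis), with 19p in blue, 19q in orange and the 3 called genes circled. Most points lie right of 0 and below the dashed line of equal shift, and the 3 circled genes lie near that line.

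KRAB-annotated members (162 tested) had a median log2 fold change of 0.83 and the other 75 of 0.52. These medians were 1.01 and 0.70 without FLAG IP 2. On 19p the medians were 1.16 in 54 annotated and 1.34 in 21 other genes, and 1.25 and 1.23 without FLAG IP 2, so that their order rested on that library. On 19q they were 0.64 in 108 and 0.32 in 54 genes (0.89 and 0.58 without FLAG IP 2), and on other chromosomes 0.70 and 0.32 (0.84 and 0.33). The annotation is that of the deposited table, and a gene it does not list may still encode a KRAB domain.

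Other genes of the KRAB pathway went both ways. The 40 listed genes, which include TRIM28, SETDB1, the HP1 proteins CBX1, CBX3 and CBX5, the NuRD and HUSH subunits and DNA methyltransferases, had a median log2 fold change of 0.14. edgeR called 0 of the 40 over all 6 libraries, with 8 higher and 5 lower at an unadjusted p under 0.05, and DESeq2 called 6 higher and 5 lower. Without FLAG IP 2, edgeR called 18 higher and 13 lower, where 23.9% and 27.2% of all genes were, and their median was 0.12. TRIM28, the scaffold that KRAB domains bind and itself a gene of chromosome 19, was at 373, 388 and 378 CPM over the lysates, against 210, 270 and 229 CPM in the immunoprecipitates. All 3 immunoprecipitates were below the lysates, with a log2 fold change of -0.68 (edgeR adjusted p = 0.12) and -0.78 without FLAG IP 2. SETDB1 was at 55.8, 53.8 and 53.4 CPM against 45.5, 56.2 and 44.2 CPM, with overlapping groups and a log2 fold change of -0.16.

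Across members the log2 fold change had a Spearman correlation of 0.25 with gene span, 0.15 with the count-weighted transcript length and -0.15 with the lysate level (237 genes that share libraries and, in part, sequence). They were 0.25, 0.19 and -0.01 without FLAG IP 2, so the weak relation with level rested on that library. Members with a length under 2000 nt parted by arm, with a median of 1.17 for 8 genes of 19p and -0.59 for 13 genes of 19q. From 2000 to 4000 nt the medians were 1.21 and 0.60 (37 and 75 genes), and from 4000 nt 1.16 and 0.62 (30 and 74 genes). The 3 bands had medians of 1.28, 1.24 and 1.24 on 19p and of -0.49, 0.89 and 0.82 on 19q without FLAG IP 2. Over all coding genes these 3 length bands had medians of -0.22, -0.04 and 0.02. On 19p the 35 genes whose promoter window held GTCACTCA had a median of 1.34 and the 35 without it 1.02 (1.44 and 1.07 without FLAG IP 2). GTCACTCA was picked from stretches printed in part for large differences, so this order is not independent of the fold changes. It also follows the runs, with 14 of 24 windows in the run of highest median and 0 of 14 from 7.1 to 9.8 Mb. With and without CCAAT the medians were 1.24 and 1.02 on 19p (57 and 13 genes) and 0.37 and 0.74 on 19q (50 and 92 genes), opposite in order, and they kept that order without FLAG IP 2 (1.35 and 1.17, 0.57 and 0.92).

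The transcript table splits each gene's counts over its annotated models. Coding models took 93.4, 93 and 93.7% of the members' transcript counts in the lysates and 89.1, 91.8 and 88.3% in the immunoprecipitates, a change of -3.68 percentage points, and over all coding genes they took 90.2% and 86.5% on average. Models typed as retaining an intron took 2.67, 2.26 and 2.23% in the lysates and 4.86, 3.13 and 5.11% in the immunoprecipitates, so that all 3 immunoprecipitates were above the lysates. The rise was not particular to the members. Over all coding genes this share was 5.50, 5.76 and 5.68% against 9.11, 6.23 and 9.14%. In numbered ZNF genes on other chromosomes it was 2.12, 1.72 and 2.27% against 5.07, 3.18 and 5.26%. On 19p this share was 2.27, 2.14 and 2.25% in the lysates and 7.21, 3.51 and 7.00% in the immunoprecipitates, and on 19q it was 2.82, 2.31 and 2.22% against 3.64, 2.91 and 4.18%. The median of the members' own changes in coding share was 0.35 percentage points, above 0, so that the sum and the typical gene moved apart.

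The coding share was lower by most in ZNF799, ZNF85 and ZNF808. ZNF799 had 78.7, 87.2 and 81.6% of its counts on coding models in the lysates and 16.4, 90.1 and 1.6% in the immunoprecipitates. ZNF808 had 63.0, 68.8 and 55.8% against 5.6, 62.2 and 0.9%, and ZNF85 had 99.3, 98.3 and 97.0% against 68.1, 95.3 and 3.7%. In all 3 genes FLAG IP 2 stayed within or near the lysate range. The coding share was higher by most in ZNF257 (69.1% to 93.9% on average), ZNF180 (73.6% to 97.4%) and ZNF229 (27.3% to 49.5%), and the lysates of ZNF257 alone ranged from 41.0 to 94.3%. Transcript counts are estimates of a shared set of reads, and no error of the assignment is given in the files.

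**Figure D5:**
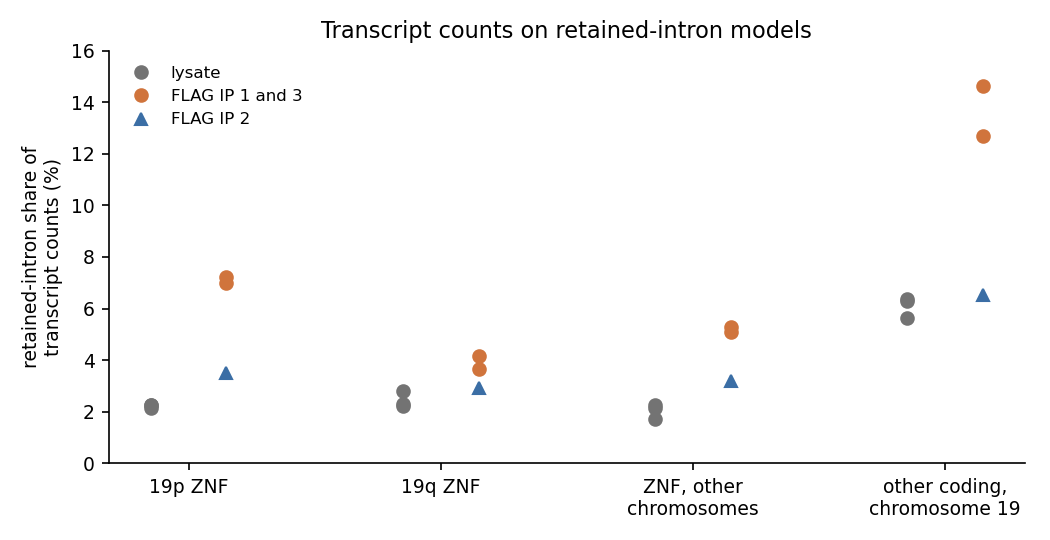
Share of transcript counts on models typed as retaining an intron, in percent, for the 19p and 19q genes, for numbered ZNF genes on other chromosomes and for other coding genes of chromosome 19; grey points are lysates, orange points FLAG IP 1 and 3, blue triangles FLAG IP 2. On 19p the share is 2.14 to 2.27% in the lysates and 7.00 and 7.21% in FLAG IP 3 and 1, and other coding genes of the chromosome go from 5.64 to 6.38% up to 12.7 and 14.6%.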

How the data were processed

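RNA of 3 total lysates and 3 FLAG immunoprecipitates of HK2 cells was analysed. The authors deposited gene and transcript counts, which are whole numbers, and FPKM per gene, per the file headers. Per the submitters' processing notes the tools included cutadapt 1.9, HISAT2 2.2.1, StringTie 2.1.6, DESeq2 and edgeR, with GRCh38.p14. Immunoprecipitate was compared with lysate over all 6 libraries in edgeR 4.0.16 (R 4.3.3; default expression filter, trimmed mean of M-values, quasi-likelihood F test, Benjamini-Hochberg adjustment over all genes tested, threshold 0.05). CPM are these scaled counts, and FPKM served to compare levels between genes. DESeq2 1.42.0 and limma 3.58.1 on log2(FPKM + 1) and log2(FPKM + 0.1) were alternatives, as were other scalings, filters, a replicate block and leaving out each library. The edgeR fit was tested on simulated data.

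Titles share replicate numbers 1 to 3, and the labels do not say whether these pair libraries. Same-numbered libraries did not deviate together (correlations -0.011, -0.054 and 0.010 over 20593 genes), and the numbers were not used as pairs. With so few libraries a group these correlations cannot exclude a pairing. Members and gene lists were chosen with earlier results of these data known. Named members were those called over all libraries, the 8 largest rises and falls with a mean of at least 5 CPM and non-overlapping groups, the 6 highest by lysate FPKM, 2 per run of at least 5 tested genes, and the 3 on each side that differed most in FLAG IP 2 or in coding share. Genes of multigene families may share reads, and no source used here says how these were assigned.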

Additional observations from a re-analysis of the deposited data

How the results depend on the processing

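The members' median log2 fold change stayed above 0 in all 16 alternatives to the main setting (0.49 to 0.93), as did the medians of both arms in every scaling, filter and tool. Library totals alone shifted the median of all genes tested by 0.13 against the main scaling. The count called higher, 3, was 5 with upper-quartile scaling and with library totals, 8 with a filter of 1 CPM in 3 libraries. It was 6 with coding genes only and 75 with DESeq2, which called 2 lower. Without an expression filter it was 0. With the replicate block it was also 0, and the median was 0.61. The labels do not say whether the replicate number pairs libraries. Leaving out each library gave 0 to 161 higher and 0 to 5 lower, the larger counts without FLAG IP 2. The cause was not tested. The difference of 19q from 19p, -0.62, was -0.25 and -0.54 in limma on log2(FPKM + 1) and log2(FPKM + 0.1), -0.52 with the replicate block and -0.60 to -0.44 with each library left out. The same settings were added after seeing the data for the other lists: of the KRAB pathway genes DESeq2 called 11 and leaving out libraries gave 0 to 31, and of the other C2H2 genes 1 and 0 to 5. The change of coding share was 0.35 percentage points as the median of the members' own shares, and -4.71 to -2.96 with each library left out. Of the 42 named genes, DESeq2 called 19 that edgeR did not, and no called gene changed sign. Depth limits genes of few counts. ZNF676 had counts in FLAG IP 2 only, the library with the lowest total. With 3 libraries a group, 2-fold changes simulated with a single shared dispersion were recovered in 1.49%, a share that does not carry over to the real genes.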
